A study of Mus musculus with 20 samples.

Results

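The nCounter panel holds 4 genes whose symbol starts with Clec, of 770 measured: Clec4a2, Clec4n, Clec5a and Clec7a. All genes with this prefix were taken, with earlier results of these data known, and all 4 encode C-type lectin receptors. They were followed across 20 subcutaneous tumours of MMC, a mouse mammary carcinoma line, each deposited as a sample of its own and taken on day 1 after treatment. Every host was a FVB/N-TgN(MMTV-Erbb2)NK1Mul/J mouse, aged 6 to 8 weeks at implantation, in which the MMTV promoter drives an Erbb2 transgene mainly in mammary epithelium. So the transgene is shared by all groups and is no difference between them. Mice received 5 mg/kg intraperitoneally of 1 of 4 agents, with 5 tumours per group: an isotype control antibody, the same kind of antibody carrying T785 (isotype ISAC), anti-rHER2, or anti-rHER2 carrying T785 (anti-rHER2 ISAC). An ISAC is an immune-stimulating antibody conjugate, anti-rHER2 binds rat HER2, and T785 is an agonist of the RNA sensors TLR7 and TLR8.

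C-type lectin receptors are surface proteins of myeloid cells with a domain that can bind sugars or other ligands. Clec7a (dectin-1) binds fungal beta-glucans and signals through its own tyrosine motif, while Clec4n (dectin-2) binds mannose-rich glycans and signals through the Fc receptor gamma chain encoded by Fcer1g. Clec5a (MDL-1) pairs with the adaptors DAP12 and DAP10. These activating receptors recruit the kinase Syk and, for the dectins, the adaptor Card9. Clec4a2 (dendritic cell immunoreceptor, DCIR) carries an inhibitory tyrosine motif that recruits phosphatases. In tumours, macrophages, monocytes, neutrophils and dendritic cells are the usual carriers of these receptors.

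The 4 genes did not move together. With the anti-rHER2 ISAC, Clec4a2 was 4.50-fold higher and Clec4n 2.2-fold lower than with the isotype antibody. Clec7a was highest with plain anti-rHER2, at 3.04 times its level with the isotype antibody, and Clec5a stood highest with the anti-rHER2 ISAC, at 1.78 times. The Clec5a groups overlapped, and its rise was not called under any of 3 other scalings. No Clec gene was called different between the isotype ISAC and the isotype antibody.

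All 4 genes lie on chromosome 6 in the RefSeq annotation of GRCm38.p6. Clec4a2 and Clec4n, whose signals moved in opposite directions, are near neighbours with 1 coding gene between them, Clec4b2. Clec7a lies 108 coding genes past Clec4n, and 631 coding genes separate Clec5a from Clec4a2. The 250 bases before the transcription start are shown for Clec4a2, Clec5a and Clec7a, since they let the control regions of genes that moved apart be set beside each other. Clec7a has 2 starts listed, of which 1 is shown. The windows are chr6:123122440-123122689 on the plus strand, chr6:40585806-40586055 on the minus strand and chr6:129472786-129473035 on the minus strand, in this order, written 5′ to 3′ along the gene. Capitals mark the matches to the motifs searched.
Clec4a2: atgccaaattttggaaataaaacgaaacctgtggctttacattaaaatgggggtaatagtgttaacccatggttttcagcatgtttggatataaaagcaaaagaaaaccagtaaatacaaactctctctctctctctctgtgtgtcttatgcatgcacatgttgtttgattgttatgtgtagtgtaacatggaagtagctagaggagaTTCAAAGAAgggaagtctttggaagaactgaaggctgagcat
Clec5a: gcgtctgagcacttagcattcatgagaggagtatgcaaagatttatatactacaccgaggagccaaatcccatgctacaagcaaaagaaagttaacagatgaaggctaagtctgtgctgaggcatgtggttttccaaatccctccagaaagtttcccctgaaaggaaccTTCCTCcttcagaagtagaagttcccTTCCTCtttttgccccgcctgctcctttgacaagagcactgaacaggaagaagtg
Clec7a: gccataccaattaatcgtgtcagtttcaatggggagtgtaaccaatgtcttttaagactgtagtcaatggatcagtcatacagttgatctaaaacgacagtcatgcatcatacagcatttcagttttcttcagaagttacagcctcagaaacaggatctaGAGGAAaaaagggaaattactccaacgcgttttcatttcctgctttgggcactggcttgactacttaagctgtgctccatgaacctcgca
Motifs were read on both strands. The core GAGGAA of PU.1, a factor of myeloid cells, was found in the Clec5a window 2 times, both on the opposite strand as its reverse complement, the first match beginning 81 bases before the start. The Clec7a window held it once, 90 bases before the start, and the Clec4a2 window did not hold it. The GAS motif TTCNNNGAA of STAT factors was found in the Clec4a2 window only, 42 bases before the start. Of 32851 RefSeq windows of this length, 23.3% held the PU.1 letters and 7.02% the GAS letters. None of these 3 windows held the AP-1 motif TGANTCA (6.75% of windows), the NF-kB motif (GGG, 5 bases of any kind, CC; 45.8%) or the IRF motif (GAAA, 2 bases of any kind, GAAA; 2.98%). The matches marked in capitals do not overlap each other. A match is a description of letters and no site of binding.

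The values are the normalized signals that the authors deposited, and they are linear. From the steps between values, 1 count was worth 0.826 to 1.33 units of signal, and tumours held 271793 to 508433 counts in all. The Clec genes rested on 19 to 301 counts per tumour, well above the floor of 1 unit. Epithelial markers were high in every tumour: the summed signal of 4 of them, Epcam and Erbb2 included, was 7030 to 10652. Fold changes come from limma on log2(signal + 1), fitted over all 20 tumours, and a gene is called at an adjusted p (Benjamini-Hochberg over 770 genes) below 0.05. Signals of different genes were not ranked against each other, because each probe captures its target with its own efficiency. Probe sequences were not used here, so cross-reaction with close paralogs was not checked. RNA came from whole tumours, in which fewer cells of a type and less RNA per cell cannot be told apart.

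**Figure D1:**
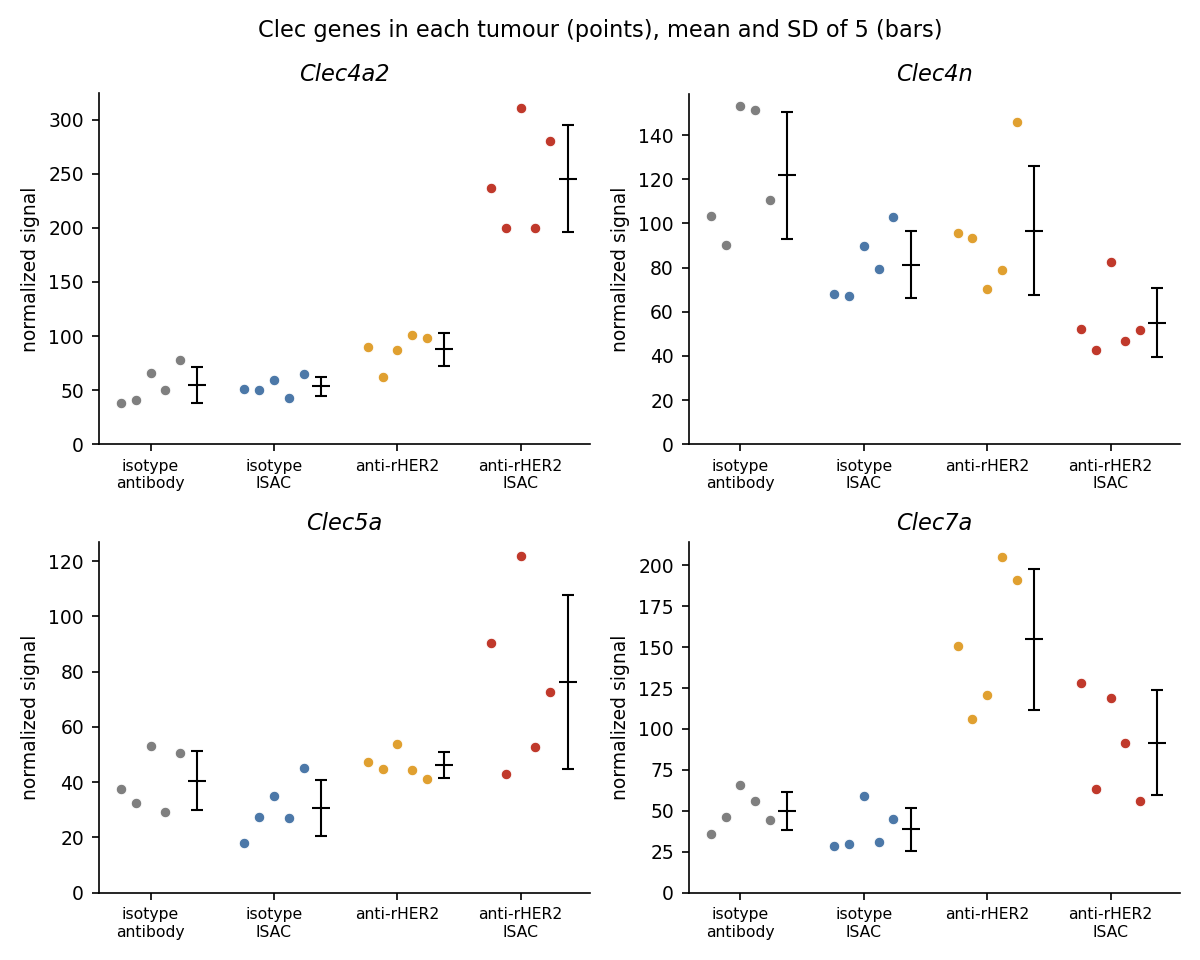
Normalized signal (linear axis from 0) of each Clec gene in the 4 groups, with 1 point per tumour (5 per group) and the mean with SD beside them. Clec4a2 stands highest with the anti-rHER2 ISAC (199 to 311), Clec7a with anti-rHER2 (106 to 205), and Clec4n lowest with the anti-rHER2 ISAC (42.8 to 82.5).

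Clec4a2, the inhibitory receptor, had signals of 38.6, 41.2, 66.0, 50.5 and 77.7 in the 5 tumours given the isotype antibody. With the isotype ISAC they were 50.7, 49.95, 59.0, 42.6 and 64.8. With anti-rHER2 they were 90.2, 62.55, 87.5, 100.6 and 98.1. The anti-rHER2 ISAC gave 237, 199, 311, 200.2 and 280.1, all above the highest tumour of the other 3 groups. The group means were 54.8 ± 16.7, 53.4 ± 8.64, 87.8 ± 15.1 and 245 ± 49.2 (SD, n = 5 each). In order of level, the anti-rHER2 ISAC was first and anti-rHER2 second, with no overlap between them. The isotype antibody and the isotype ISAC shared the lowest place, since their ranges overlapped and their difference was not called.

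Clec4n, the dectin-2 gene, ran the other way. Its signals with the isotype antibody were 103.5, 90.05, 153, 152 and 111. With the isotype ISAC they were 67.9, 67.0, 89.8, 79.2 and 103, and with anti-rHER2 95.8, 93.3, 70.2, 78.9 and 146. With the anti-rHER2 ISAC they were 52.1, 42.8, 82.5, 46.65 and 51.5. In this last group 4 of the 5 tumours lay below every tumour of the other groups, and replicate 3, at 82.5, stood apart from the rest. The means were 122 ± 28.9, 81.3 ± 15.2, 96.8 ± 29.4 and 55.1 ± 15.8 (SD, n = 5 each). The order of levels was isotype antibody, anti-rHER2, isotype ISAC and anti-rHER2 ISAC, and of its neighbouring pairs only the last was called different.

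Clec5a, the MDL-1 gene, had the least separated groups. Its signals were 37.6, 32.6, 53.0, 29.25 and 50.5 with the isotype antibody and 18.2, 27.25, 35.05, 27.2 and 45.3 with the isotype ISAC. With anti-rHER2 they were 47.45, 44.7, 53.7, 44.4 and 41.3, the tightest group of this gene. With the anti-rHER2 ISAC they spread from 42.8 in replicate 2 through 52.6, 72.8 and 90.5 to 122 in replicate 3. That group reached highest but overlapped with each of the other 3 groups. The means were 40.6 ± 10.7, 30.6 ± 10.1, 46.3 ± 4.66 and 76.1 ± 31.5 (SD, n = 5 each), and no neighbouring pair in this order of levels was called different.

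Clec7a, the dectin-1 gene, was the member with its highest level under the unconjugated antibody. Its signals were 35.75, 46.0, 66.0, 55.8 and 44.65 with the isotype antibody and 28.7, 29.5, 59.0, 30.7 and 45.3 with the isotype ISAC. With anti-rHER2 they rose to 151, 106, 121, 205 and 191, and with the anti-rHER2 ISAC they were 128, 63.4, 119, 91.6 and 56.0. All 5 anti-rHER2 tumours lay above every tumour of both isotype groups, whereas the anti-rHER2 ISAC tumours overlapped with each of the other 3 groups. The means were 49.6 ± 11.6, 38.6 ± 13.3, 154.7 ± 43.0 and 91.5 ± 32.1 (SD, n = 5 each). Anti-rHER2 was first in level, the anti-rHER2 ISAC second and both isotype groups last, the isotype groups not being called different from each other.

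The anti-rHER2 ISAC versus the isotype antibody joins the effect of the target with that of T785, and here all 4 Clec genes were called, 3 higher and 1 lower. Over the whole panel 44.5% of genes were called in this comparison, 39.9% higher and 4.68% lower, so a call alone sets no higher gene apart, and the lower call belongs to the rarer direction. Clec4a2 was at a log2 fold change of 2.17 ± 0.19 (SE, adjusted p = 4.5e-08, limma) and was higher in 5 of 5 tumours than in every control. It was the 28th highest fold change of the panel. Clec4n fell by 1.14 ± 0.21 on the log2 scale (adjusted p = 0.000254, limma), the 5th lowest fold change of the panel, and lay below every control in all 5 tumours. Groups without overlap were found for 28.6% of panel genes in the higher direction and 2.99% in the lower. Clec5a was at 0.83 ± 0.26 (adjusted p = 0.0136, limma) and Clec7a at 0.83 ± 0.26 (adjusted p = 0.0153, limma), each with 3 of 5 tumours above every control.

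The scaling between tumours bears on the last 2 calls. The median gene of the panel was 0.36 higher on the log2 scale in this comparison, and relative to it Clec4a2 stood at 1.81, Clec4n at -1.50, Clec5a at 0.47 and Clec7a at 0.47. When the panel medians were set equal, 92 genes were called higher and 277 lower in place of 307 and 36. Clec5a then stood at 0.12 and Clec7a at 0.11, and neither was called, nor were they under quantile normalization or under scaling by the median ratio. Clec4a2 stayed called at 1.45 to 1.79 and Clec4n at -1.85 to -1.52 under these 3 scalings. Leaving out Clec7a's highest tumour of the group, replicate 1, gave 0.69 with an adjusted p of 0.0502 (limma).

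**Figure D2:**
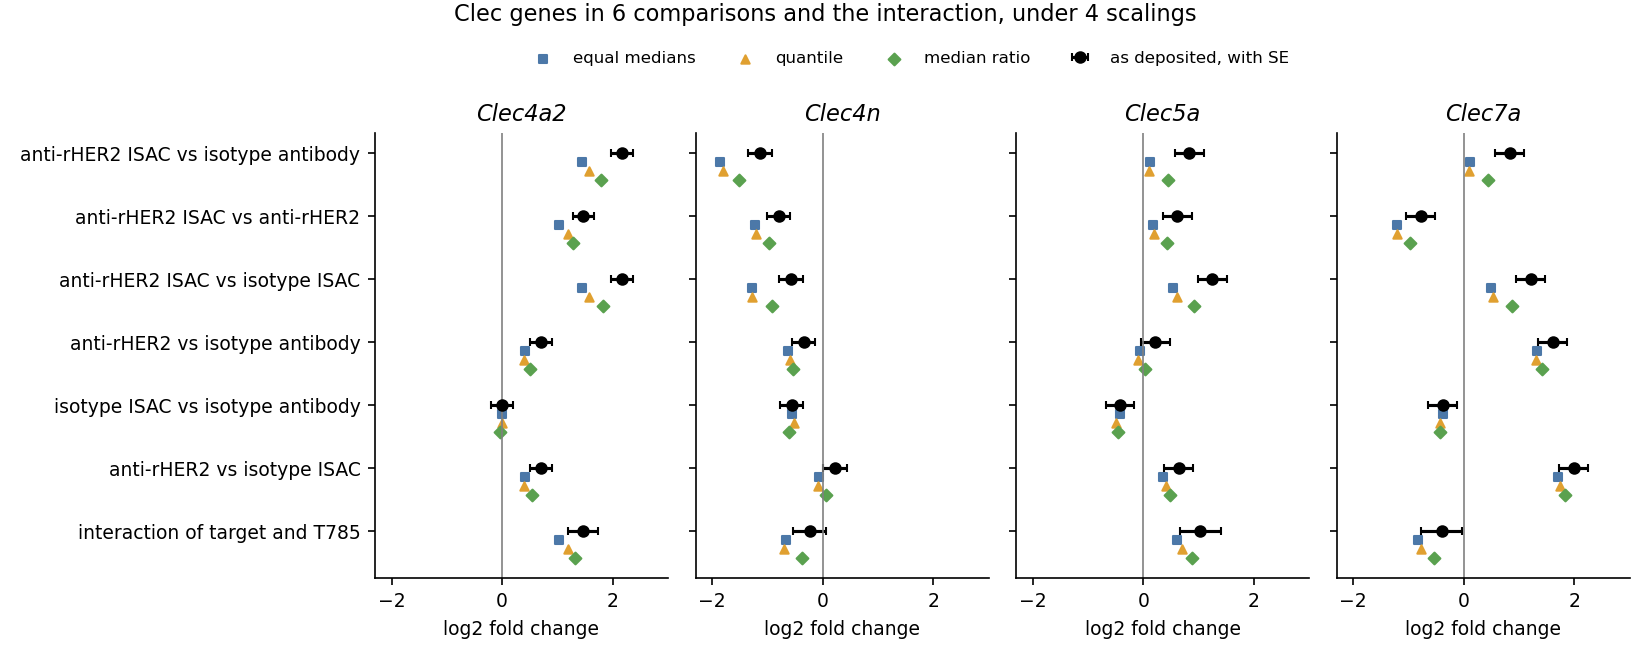
Log2 fold change (horizontal axis) of each Clec gene in the 6 comparisons and the interaction, as deposited (black circle with SE) and under 3 other scalings (coloured marks). Clec4a2 and Clec4n keep their sides in the comparisons of the anti-rHER2 ISAC, while Clec5a and Clec7a against the isotype antibody move from 0.83 to 0.12 and 0.11 with equal medians.

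Adding T785 to the targeting antibody is read from the anti-rHER2 ISAC against anti-rHER2, where the Clec genes parted: 1 was called higher and 2 lower, against 19.6% higher and 2.99% lower over the panel. Clec4a2 was 2.77-fold higher, at 1.47 ± 0.19 (adjusted p = 1.3e-05, limma), with no overlap between the groups, as for 12.5% of the panel in this direction and 1.56% in the lower. Clec4n fell by 0.79 ± 0.21 (adjusted p = 0.0109, limma) and Clec7a fell by 0.78 ± 0.26 (adjusted p = 0.0400, limma), with 4 and 3 of 5 tumours below every anti-rHER2 tumour. The Clec7a call ended when any of 6 of the 10 tumours was left out, with adjusted p up to 0.122 (limma), and with only these groups in the fit (adjusted p = 0.0764, limma). Clec5a was at 0.61 ± 0.26 (adjusted p = 0.105, limma), with an interval from 0.070 to 1.16, and was not called. Without replicate 2 of the anti-rHER2 ISAC, its lowest tumour, it was called at 0.79 (adjusted p = 0.0273, limma), and edgeR on the recovered counts also called it, at 0.70 (adjusted p = 0.0440).

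Adding the target to a T785 conjugate is read from the anti-rHER2 ISAC against the isotype ISAC. All 4 genes were called, 3 higher and 1 lower, beside 36% higher and 3.9% lower over the panel. Clec4a2 was again at 2.17 ± 0.19 (adjusted p = 4.7e-08, limma), and its groups did not overlap, as for 24.7% of genes in the higher direction and 2.08% in the lower. Clec5a was at 1.25 ± 0.26 (adjusted p = 0.000778, limma) and Clec7a at 1.21 ± 0.26 (adjusted p = 0.00116, limma), each with 4 of 5 tumours above every isotype ISAC tumour. The Clec7a call ended with equal medians (0.49, adjusted p = 0.0716) and with quantile normalization (0.53, adjusted p = 0.0717, limma). Clec4n fell by 0.57 ± 0.21 (adjusted p = 0.0387, limma), and this call ended on leaving out any of 7 of the 10 tumours, with adjusted p up to 0.0955 (limma).

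Target binding without T785 is read from anti-rHER2 against the isotype antibody, where 2 Clec genes were called higher and 0 lower. Over the panel 9.09% of genes were called, 8.83% higher and 0.26% lower. Clec7a was at 1.61 ± 0.26 (adjusted p = 0.00124, limma), the 6th highest fold change of the panel, and did not overlap with the controls, as for 9.22% of genes. It stayed called at 1.30 to 1.41 under the other scalings. Clec4a2 was at 0.70 ± 0.19 (adjusted p = 0.0325, limma), but its call ended under all 3 other scalings (0.39 to 0.51), with only these groups in the fit (adjusted p = 0.0832, limma), and on leaving out any of 7 of the 10 tumours. Clec4n was at -0.34 ± 0.21 (adjusted p = 0.316, limma) and Clec5a at 0.22 ± 0.26 (adjusted p = 0.645, limma), and the sign of Clec5a turned with equal medians (-0.063) and quantile normalization (-0.093).

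Against the isotype ISAC, anti-rHER2 also had 2 Clec genes higher and 0 lower, beside 5.71% of the panel called, 5.06% higher and 0.649% lower. Clec7a was at 1.99 ± 0.26 (adjusted p = 0.000352, limma), the 2nd highest fold change of the panel, with no overlap, as for 6.49% of genes. Clec4a2 was at 0.70 ± 0.19 (adjusted p = 0.0401, limma), a call that ended under the 3 other scalings (0.39 to 0.55) and on leaving out any of 7 of the 10 tumours. Clec5a was at 0.64 ± 0.26 (adjusted p = 0.156, limma) and Clec4n at 0.22 ± 0.21 (adjusted p = 0.582, limma), the latter turning to -0.064 with equal medians and -0.077 with quantile normalization.

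T785 without tumour binding is read from the isotype ISAC versus the isotype antibody, and 0 Clec genes were called, as were 0% of panel genes by limma and 0 genes by edgeR. At an unadjusted p under 0.05, 47 panel genes passed by limma and 43 by edgeR. Clec4n was among the 47, at -0.56 ± 0.21, with an interval from -1.01 to -0.12 and an unadjusted p of 0.0154 that became 0.744 after adjustment (limma). Clec4a2 did not move between the means, with an interval from -0.41 to 0.41 on the log2 scale. Clec5a was at -0.42, from -0.96 to 0.12, and Clec7a at -0.38, from -0.93 to 0.17, so changes of up to about these bounds cannot be told from none with 5 tumours a group.

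These comparisons share groups and are not independent: the isotype antibody serves as control in 3 of them and the anti-rHER2 ISAC stands in 3. The interaction asks whether T785 acted differently on the targeting antibody and on the isotype antibody. Clec4a2 was called, at 1.47 ± 0.27 (adjusted p = 0.00119, limma), beside 7.14% of panel genes called, 6.88% higher and 0.26% lower. The interaction of Clec4n was at -0.23 ± 0.30 (adjusted p = 0.759) and that of Clec7a at -0.40 ± 0.37 (adjusted p = 0.641), neither called by limma. Clec5a was at 1.03 ± 0.37 (adjusted p = 0.111, limma), and without replicate 2 of the anti-rHER2 ISAC at 1.21 (adjusted p = 0.0321, limma).

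The ratio of a pair of Clec signals within a tumour does not depend on the scaling of that tumour. Its level depends on the probes, so only its change between groups was read. The 6 pairs over the 6 pairs of groups made 36 tests, each an exact 2-sided permutation test of 5 against 5 tumours, whose smallest possible p is 0.00794. After Benjamini-Hochberg adjustment over the 36, 23 were below 0.05. How many other pairs of panel genes would pass, or separate the groups without overlap, was not computed. So these counts do not set the Clec pairs apart from other pairs.

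Clec4a2 over Clec4n shifted most. The ratio was 0.373, 0.457, 0.431, 0.333 and 0.702 with the isotype antibody and 0.747, 0.746, 0.657, 0.537 and 0.631 with the isotype ISAC. It was 0.942, 0.670, 1.25, 1.28 and 0.673 with anti-rHER2 and 4.54, 4.66, 3.76, 4.29 and 5.43 with the anti-rHER2 ISAC. All 5 anti-rHER2 ISAC tumours thus lay above every tumour of the other groups. Against the isotype antibody the geometric mean ratio was 9.90 times as high, 3.31 on the log2 scale (exact permutation p = 0.00794, adjusted 0.0143). Anti-rHER2 alone raised it by 1.04 on the log2 scale (exact p = 0.0238, adjusted 0.0390), and the isotype ISAC by 0.56 (exact p = 0.0317, adjusted 0.0497), both with groups that overlapped.

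Of the 3 ratios over Clec7a, those of Clec4a2 and Clec5a differed between anti-rHER2 and its conjugate, and that of Clec4n did not pass the test. The median of Clec4a2 over Clec7a was 1.00 with the isotype antibody, 0.589 with anti-rHER2 and 2.62 with the anti-rHER2 ISAC. From anti-rHER2 to its conjugate the ratio changed by 2.25 on the log2 scale (exact permutation p = 0.00794, adjusted 0.0143). The median of Clec5a over Clec7a was 0.804, 0.315 and 0.707 in the same groups, a fall of 1.39 with anti-rHER2 and a rise of 1.39 from there to the conjugate (exact permutation p = 0.00794 and adjusted 0.0143 for each). Between the anti-rHER2 ISAC and the isotype antibody this ratio differed by 0.0059 on the log2 scale (exact permutation p = 0.992). Clec4n over Clec7a fell by 1.95 with anti-rHER2 and by 1.96 with its conjugate, both against the isotype antibody (exact permutation p = 0.00794, adjusted 0.0143 for each). From anti-rHER2 to its conjugate it changed by -0.014 (exact permutation p = 0.960, adjusted 0.988).

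**Figure D3:**
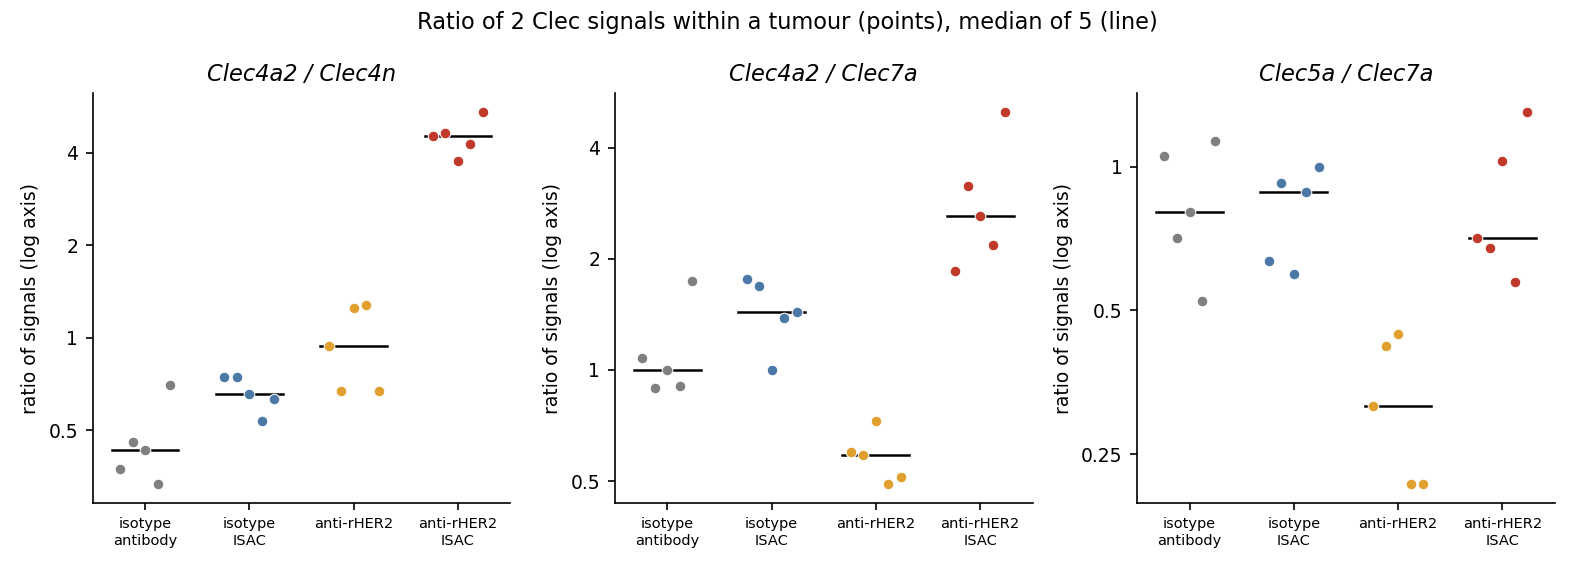
Ratio of a pair of Clec signals in each tumour (log axis), with 1 point per tumour, 5 per group, and a line at the group median. Clec4a2 over Clec4n is 3.76 to 5.43 with the anti-rHER2 ISAC against 0.333 to 0.702 with the isotype antibody, and Clec5a over Clec7a is lowest with anti-rHER2, at a median of 0.315.

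Markers of the cells that carry these receptors moved in the same tumours. The summed signal of 16 monocyte and macrophage markers ranged over 3933 to 6638 in isotype antibody tumours, 4509 to 5410 under the isotype ISAC, 7261 to 10015 under anti-rHER2 and 5756 to 8889 under its conjugate. Marco, a macrophage scavenger receptor, was under 5 in every tumour of the first 3 groups. The 13 neutrophil markers summed to 764 to 928, 814 to 932, 1087 to 1335 and 1771 to 3418 in the same order, with Ltf under 5 in every tumour. The 17 dendritic cell markers summed to 10688 to 16615, 9772 to 16558, 12006 to 20597 and 8291 to 12333. The brightest probes weigh most in such sums. The dendritic list holds class II genes such as H2-Ab1. Its signal was 2417 ± 585 with the isotype antibody and 1006 ± 212 with the anti-rHER2 ISAC (SD, n = 5 each). Whether the markers of a list come from a single cell type was not tested. The ranges of the macrophage and dendritic sums overlapped between anti-rHER2 and its conjugate, and those of the neutrophil sum did not. Gene by gene, the anti-rHER2 ISAC had 5 macrophage markers called higher and 2 lower than anti-rHER2, with a median log2 fold change of 0.32, while the median of the sum was lower there, at 7293 against 8243. Cd68, a lysosomal protein of phagocytes, was at 480.5 ± 80.7 with anti-rHER2 and 864 ± 143 with the conjugate (SD, n = 5 each). In the same comparison 6 neutrophil markers were higher and 0 lower, and 3 dendritic markers were higher and 7 lower, beside 19.6% higher and 2.99% lower over the panel. With equal medians these splits were 4 and 4, 6 and 1, and 1 and 10. The part of these cells in the Clec results was not tested.

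Against the isotype antibody, 11 of 16 monocyte and macrophage markers were called higher and 0 lower with the anti-rHER2 ISAC, with a median log2 fold change of 0.93, beside 39.9% higher and 4.68% lower over the panel. Cd68 was at 1.81 ± 0.15 and Csf1r, the receptor of macrophage growth factor, at 0.23 ± 0.14 (adjusted p = 0.200, limma). With equal medians 6 were higher and 4 lower. Of 13 neutrophil markers 6 were higher and 0 lower, with a median of 0.77, led by the calprotectin subunit S100a8 at 5.24 ± 0.30, and with equal medians 6 were higher and 2 lower. Dendritic markers went both ways: 3 of 17 were higher, such as the integrin Itgax at 1.44 ± 0.17, and 6 lower, such as the class II gene H2-Ab1 at -1.25 ± 0.21, with a median of -0.34. With equal medians 2 were higher and 12 lower, with a median of -0.96, and under quantile normalization 3 and 9. NK cell markers had 3 of 8 higher, T cell markers 1 of 11 and B cell markers 1 of 8, none above the panel's 39.9%, with 0 lower in each of these lists. With equal medians NK cell markers had 2 higher and 2 lower, T cell markers 0 and 1, and B cell markers 1 and 0. With anti-rHER2 against the isotype antibody, 7 macrophage, 5 neutrophil and 1 dendritic marker were higher and 0 lower, beside 8.83% of the panel higher. With equal medians the higher calls were 1 of 16, 2 of 13 and 0 of 17.

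Expressed per 100 units of the summed monocyte and macrophage signal of the same tumour, a measure added after the data were seen, Clec4a2 was 1.01 ± 0.230 with the isotype antibody, 1.05 ± 0.138 with the isotype ISAC, 1.07 ± 0.147 with anti-rHER2 and 3.25 ± 0.516 with the anti-rHER2 ISAC (SD, n = 5 each). The anti-rHER2 ISAC tumours (2.69 to 3.87) lay above all others, while the 3 other groups overlapped. On this measure Clec4n was 2.25 ± 0.208, 1.60 ± 0.227, 1.16 ± 0.218 and 0.723 ± 0.130 in the same order. The ranges were 1.97 to 2.53, 1.29 to 1.90, 0.949 to 1.46 and 0.591 to 0.929, so the isotype antibody lay above and the anti-rHER2 ISAC below every other tumour. Clec7a was 0.927 ± 0.169, 0.758 ± 0.229, 1.86 ± 0.380 and 1.18 ± 0.262, with all anti-rHER2 tumours (1.46 to 2.47) above all others. Clec5a was 0.760 ± 0.158, 0.597 ± 0.164, 0.573 ± 0.116 and 0.973 ± 0.263, with overlap between all groups. Some gaps were narrow: Clec4n at 0.929 against 0.949, and Clec7a at 1.45 with the conjugate against 1.46 with anti-rHER2. How many panel genes separate in this way on the measure was not computed. The brightest markers weigh most in the sum used as divisor.

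The signalling partners of the receptors were read from lists of their pathway. Tyrobp, which encodes DAP12, and the phosphatase gene Ptpn6 were not analysed here. Fcer1g, the gamma chain used by dectin-2, had signals of 271, 209.8, 316, 318 and 279 with the isotype antibody. They were 218, 301, 245, 289.7 and 313 with the isotype ISAC and 421, 358, 359, 397 and 440.1 with anti-rHER2. With the anti-rHER2 ISAC they were 1156, 899.8, 1405, 974 and 1151, above every other tumour. Its log2 fold change against the isotype antibody was 2.00 ± 0.14 (adjusted p = 2.6e-09, limma), so this partner chain and its receptor Clec4n differed in direction. The change with anti-rHER2, 0.51 ± 0.14 (adjusted p = 0.0324, limma), was not called under the 3 other scalings.

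Syk is the kinase that the activating receptors recruit. Its signals were 66.4 ± 13.2, 63.5 ± 12.0, 115 ± 24.5 and 143 ± 34.5 (SD, n = 5 each). The order of groups is isotype antibody, isotype ISAC, anti-rHER2 and anti-rHER2 ISAC. All 5 anti-rHER2 tumours (85.85 to 145) and all 5 anti-rHER2 ISAC tumours (96.75 to 185) lay above every isotype antibody tumour (46.0 to 81.3). Syk was higher with anti-rHER2 (0.78 ± 0.20, adjusted p = 0.0222, limma; not called with equal medians or quantile normalization) and with its conjugate (1.09 ± 0.20, adjusted p = 0.000192, limma). Card9, the adaptor downstream, stood at 10.1 ± 3.03, 10.4 ± 4.66, 11.4 ± 2.5 and 16.8 ± 4.15, on 5 to 27 counts per tumour. Its fold change with the conjugate was 0.69 ± 0.27 (adjusted p = 0.0440, limma), a call that ended under all 3 other scalings. Inpp5d, the lipid phosphatase SHIP1, was at 48.8 ± 4.31, 56.0 ± 10.2, 58.2 ± 10.4 and 111 ± 19.7, with a fold change of 1.16 ± 0.15 with the conjugate (adjusted p = 5.6e-06, limma).

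**Figure D4:**
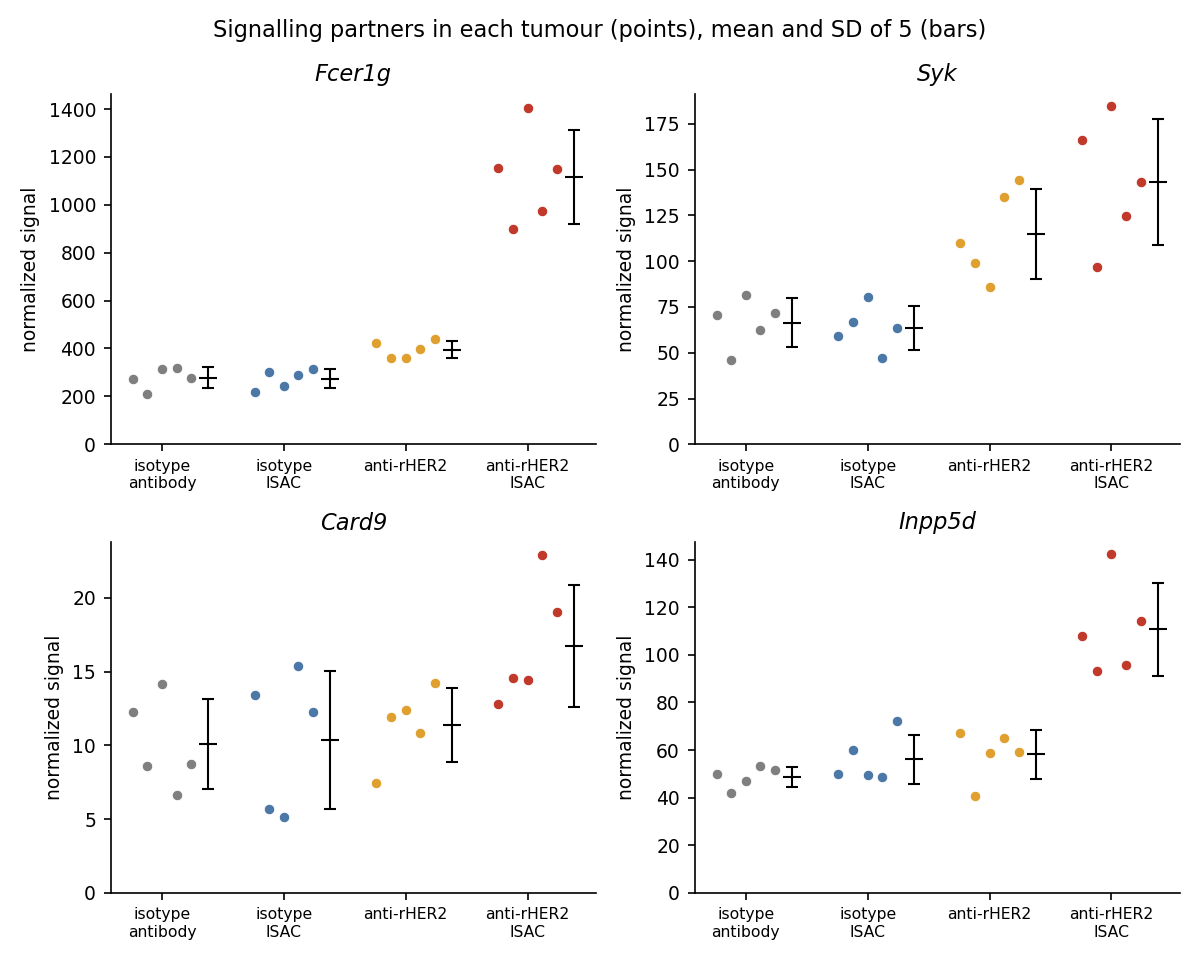
Normalized signal (linear axis from 0) of 4 signalling partners in the 4 groups, with 1 point per tumour, 5 per group, and the mean with SD beside them. Fcer1g is 899.8 to 1405 with the anti-rHER2 ISAC and no higher than 440.1 in any other tumour, Syk is raised in both anti-rHER2 groups, and Card9 is at most 22.9 in any tumour.

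With the anti-rHER2 ISAC versus the isotype antibody, 39.9% of the panel was called higher and 4.68% lower. Of 27 measured genes of the Syk and Card9 pathway, 20 were called higher and 1 lower there. Their median log2 fold change was 0.54, beside 0.36 for all genes. Among the higher were the kinases Btk (1.40 ± 0.22) and Lyn (1.29 ± 0.12). The split depended on the scaling, with 4 higher and 11 lower under equal medians, 5 and 8 under quantile normalization and 7 and 4 under the median ratio. Of 9 adaptors and partner receptors with activating motifs 6 were higher and 0 lower, with a median of 2.00. Among them were the integrin chains Itgam (2.64 ± 0.18) and Itgb2 (2.47 ± 0.17), the Fc receptor Fcgr4 (2.31 ± 0.15) and Trem1, an amplifier of inflammation on myeloid cells (2.19 ± 0.43, on 1 to 10 counts with the isotype antibody). In this list 6 genes were also called higher under each other scaling, with 2 lower under equal medians.

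The next list holds 5 measured inhibitory phosphatases and receptors with inhibitory motifs, the class to which Clec4a2 belongs by function. In the same comparison 3 were higher and 0 lower, beside 39.9% higher and 4.68% lower over the panel. Fcgr2b, the inhibitory Fc receptor, was at 1.25 ± 0.21, and Pecam1, which also carries an inhibitory motif, at 0.84 ± 0.15. Pecam1 was not called with equal medians or quantile normalization, where the list had 2 higher and 1 lower. Of 24 cytokine and inflammasome genes known downstream of dectins 12 were higher and 1 lower, beside the same panel shares. The median of this list was 0.62. Leading were the chemokines Ccl4 (3.86 ± 0.32) and Ccl3 (3.52 ± 0.41), the interleukin-1 antagonist Il1rn (2.45 ± 0.18) and Ccl2 (2.45 ± 0.27). Under equal medians the split was 5 higher and 7 lower.

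A further list holds 30 other genes whose products have a lectin domain, or, in Selplg, bind one. With the anti-rHER2 ISAC versus the isotype antibody 9 were higher and 0 lower, beside 39.9% and 4.68% over the panel. The median of this list, 0.27, was below that of all genes. Among the 9 higher genes were the Ly49 family member Klra17 (2.09 ± 0.22), the activation marker Cd69 (1.51 ± 0.17) and the selectin ligand Selplg (1.44 ± 0.20). With equal medians 4 were higher and 4 lower. With anti-rHER2 against the isotype antibody, 4 of the 27 pathway genes, 3 of the 9 partner receptors, 0 of the 5 inhibitory genes, 3 of the 24 cytokine genes and 3 of the 30 lectin-domain genes were higher, beside 8.83% of the panel. The cytokine list had 1 lower gene there and the other lists 0. With equal medians the higher calls in these lists were 0, 1, 0, 0 and 1, and the pathway and cytokine lists had 1 lower gene each.

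The panel genes whose course over the tumours was nearest to each Clec gene were found among 533 genes of mean signal of at least 20. The measure was the root mean square difference of log2(signal + 1), each gene centred on its mean over the 20 tumours, where a smaller value is a closer course. It is a description that rests on the same libraries and scaling. Nearest to Clec4a2 were Pou2f2 (0.197), a transcription factor of lymphoid and myeloid cells, the complement receptor C3ar1 (0.230), Fcer1g (0.253) and the scavenger receptor Msr1 (0.258). Pou2f2 was at 42.7 ± 5.21, 38.4 ± 5.78, 61.35 ± 9.13 and 199.8 ± 24.5 in the order of groups used above, with a fold change of 2.2 ± 0.13 with the anti-rHER2 ISAC versus the isotype antibody.

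Nearest to Clec4n were Cd83, a marker of mature dendritic cells (0.296), the ribosomal protein gene Rpl19 (0.334), the chemokine Xcl1 (0.336), Tmed1 (0.381) and Hmgb1, a chromatin protein (0.383). Cd83 fell by 1.03 ± 0.24 and Xcl1 by 0.82 ± 0.17 with the anti-rHER2 ISAC versus the isotype antibody (adjusted p = 0.00172 and 0.000620, limma). Rpl19 is 1 of the 20 reference genes and stood at -0.54 ± 0.13 there. Nearest to Clec5a were the complement proteases C1ra (0.286) and C1s1 (0.297), the receptor Tlr1 (0.310), Slamf7 (0.314) and the lysosomal protease Ctss (0.315). C1ra was at 186 ± 36.7, 196 ± 28.6, 246 ± 14.6 and 374 ± 111.

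Clec7a had no close match. Its nearest genes were Syk (0.546), the cytokine Il1b (0.564), Csf1r (0.579), the chemokine Ccl9 (0.580) and the lipid receptor Trem2 (0.593). Each lay farther from Clec7a than the nearest genes named above lay from the other Clec genes. Il1b was at 85.05 ± 8.64, 97.25 ± 50.2, 213 ± 69.8 and 140 ± 34.7, highest with anti-rHER2 like Clec7a. Its fold change with anti-rHER2 was 1.27 ± 0.31 (adjusted p = 0.0210, limma), a call that ended with equal medians and quantile normalization. Csf1r was also highest with anti-rHER2, at 898 ± 105 against 579 ± 74.8 with the isotype antibody (0.63 ± 0.14, adjusted p = 0.0118, limma; not called with equal medians) and 683 ± 107 with the conjugate. No Clec gene was among the 5 nearest of another: the nearest pair was Clec4a2 and Clec5a at 0.571 and the farthest Clec4a2 and Clec4n at 1.29. Clec5a had rank 71 in nearness to Clec4a2 and rank 65 to Clec7a. In nearness to Clec5a, these 2 genes had ranks 299 and 456.

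**Figure D5:**
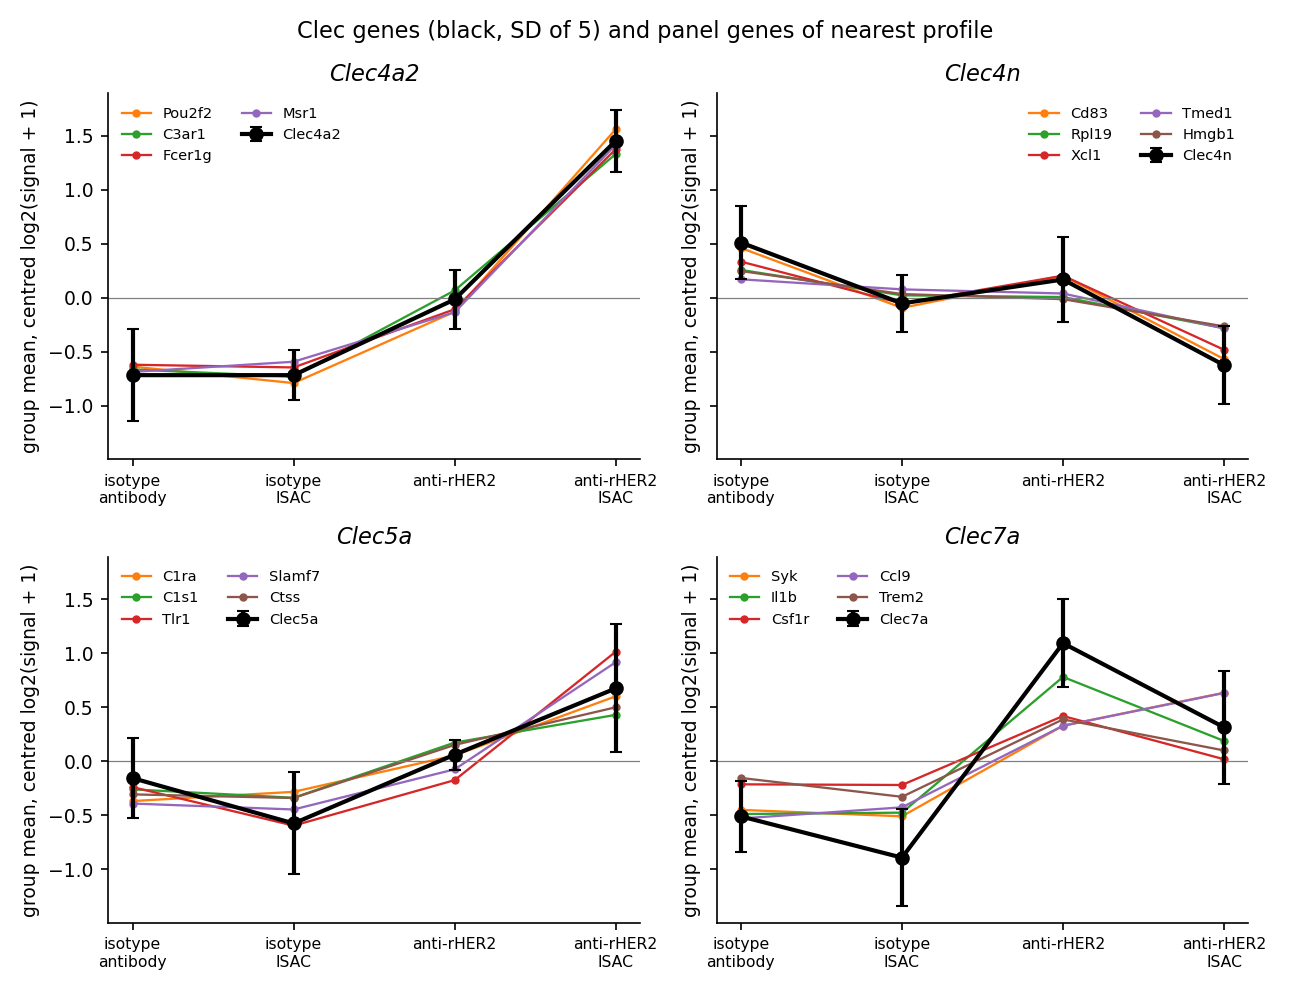
Group means of log2(signal + 1), centred on the mean over 20 tumours, for each Clec gene (black, with SD of 5 tumours) and up to 5 panel genes of nearest course (coloured lines), in the 4 groups. Clec4a2 and its neighbours rise with the anti-rHER2 ISAC, Clec4n and its neighbours are lowest there, and the Clec7a curve peaks with anti-rHER2 above all 5 of its neighbours.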

How the data were processed

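Total RNA from 20 tumours, 5 in each of 4 groups named by the treatment label, was read on nCounter probes, per the labels. The authors deposited a normalized signal for 770 genes per tumour, and the labels do not say how it was normalized. Per the values, 100% of signals above 1 and up to 1000 were a whole number of steps, 1 step size per tumour, within 0.02 counts, and the geometric mean of 20 reference genes was 389.26 to 389.27 in every tumour. The single reference genes were less even than their mean. With the anti-rHER2 ISAC versus the isotype antibody, 6 of the 20 were called higher and 7 lower. Their median log2 fold change was -0.048, beside 39.9% of the panel called higher and 4.68% lower. The lowest values alone gave the step in 15 of 20 tumours. No pair of tumours had identical values. With no cartridge or run in the labels, batches were not tested, and a batch that followed the groups could not be told apart from treatment. The p-values set differences between groups against the spread between these tumours.

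The test was limma 3.58.1 (R 4.3.3) on log2(signal + 1), with 1 mean per group over all 20 tumours and no filter. The members and lists were chosen with earlier results of these data known. Named genes were all Clec genes, the 5 nearest genes of each, up to 4 members per list with the largest change, and Syk, Card9 and Fcer1g; a few genes these rules pick are not reported here. With edgeR 4.0.16 on the recovered counts, an alternative, 350 genes were called for the anti-rHER2 ISAC versus the isotype antibody, and limma called 343. Other alternatives were 3 scalings, a pseudocount of 10, leaving out 193 low genes, a trended robust prior, only the compared groups, a replicate block, and each tumour left out. Signal per macrophage marker signal was added after the data were seen. Symbols and promoters came from RefSeq tables of GRCm38.p6, and all 4 Clec symbols are current there. The fits were tested before use on simulated counts with as many rises as falls and a fixed spread. That test does not bear on the choice of scaling.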

Additional observations from a re-analysis of the deposited data

Results flagged for a closer look

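The change of Clec4a2 with T785 differed between the antibodies. It was 1.47 on the log2 scale (signal + 1) on anti-rHER2 and within 0.01 of 0 on the isotype antibody, and the interaction was 1.47 (adjusted p = 0.00119, limma). Under equal medians, quantile normalization and the median ratio the interaction stood at 1.03, 1.19 and 1.32 and remained called, and by edgeR it was 1.51 (adjusted p = 0.000420).

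Replicate 3 of the anti-rHER2 ISAC group had a Clec4n signal of 82.54, far from the other 4 tumours of its group at 42.8 to 52.1. Its gap to the nearest tumour was 0.766 of the group's range, past the bound of 0.710 for 5 tumours. This was 1 of 16 combinations of a Clec gene and a group examined, and chance passes this bound in about 1 of 20. The same tumour was also the highest of its group for Clec4a2 (311) and Clec5a (122). It had the highest median signal over the panel of all 20 tumours, at 105.8. Without it Clec4n stood at -1.29 against the isotype antibody (adjusted p = 6.8e-05), -0.95 against anti-rHER2 (adjusted p = 0.00294) and -0.73 against the isotype ISAC (adjusted p = 0.00997, limma for each), so all 3 calls stood without it.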

How the results depend on the processing

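The calls of Clec4a2 and Clec4n with the anti-rHER2 ISAC versus the isotype antibody and against anti-rHER2 kept direction and side under the 3 scalings, the pseudocount of 10, the low-gene filter, the prior, edgeR, only the compared groups, the replicate block and each tumour left out. The count of Clec genes called for the anti-rHER2 ISAC versus the isotype antibody went from 4 to 2 under equal medians, quantile normalization and the median ratio. That for anti-rHER2 against the isotype antibody went from 2 to 1 under these 3 scalings and with only the compared groups, and that for anti-rHER2 against the isotype ISAC from 2 to 1 under the 3 scalings. Signs turned without a call for Clec5a, anti-rHER2 against the isotype antibody (-0.063 with equal medians, -0.093 with quantile normalization), for Clec4n, anti-rHER2 against the isotype ISAC (-0.064 and -0.077), and for Clec4a2, isotype ISAC against isotype antibody (0.0012 with equal medians, -0.11 to 0.14 with a tumour left out). The scalings differ in what they hold equal, and which is nearer to the tumours was not tested. With a tumour left out, the counts of Clec genes called ran from 3 to 4, 2 to 3 and 3 to 4 for the anti-rHER2 ISAC versus the isotype antibody, anti-rHER2 and the isotype ISAC, from 1 to 2 for anti-rHER2 against either isotype group, 0 to 0 between the isotype groups, 1 to 2 for the interaction and 21 to 26 of 36 for the ratio tests. Same-numbered tumours correlated at -0.18 to 0.25 in their deviations, over 0.1 in 10 of 30 pairs. The labels do not say that the numbers pair mice, so the main fit had no block. With the replicate block the interaction count went from 1 to 2, Clec5a being called (1.03, adjusted p = 0.0498, limma), and the ratio tests from 23 to 0, because a sign-flip test of 5 pairs cannot go below 0.0625, the value that 21 of 36 reached. The block moved no other count by over 1.5 times. Of the single-gene values, 225 kept direction and side under the alternatives that keep all tumours, 16 lost and 2 gained a call and 5 turned sign. Of the Clec genes Clec5a rests on the fewest counts (19 to 118), and Card9, Trem1, Ccl3 and Ccl4 start lower still, which limits their precision.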

Other observations

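With the anti-rHER2 ISAC compared with anti-rHER2, the 4 neighbours of Clec4a2 in course that the text names were called higher by limma, such as C3ar1 at 1.26 ± 0.16 and Msr1 at 1.55 ± 0.17 on the log2 scale. Of the 5 neighbours of Clec5a, the receptors Tlr1 (1.19 ± 0.23) and Slamf7 (0.99 ± 0.21) and the protease C1ra (0.55 ± 0.19) were called higher, C1ra under the deposited scaling only. Of the 5 neighbours of Clec7a none was called higher by limma, Syk standing at 0.31 ± 0.20 and Ccl9 at 0.30 ± 0.27, and Csf1r was called lower at -0.40 ± 0.14 (adjusted p = 0.0472). Over the panel, 19.6% of genes were called higher and 2.99% lower in this comparison. Each set was picked by its course in the same tumours, so its calls largely repeat those of its Clec gene. They are no separate result, and the difference between the sets was not tested.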
